A study of Mus musculus with 2 samples.

Results

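The regions described here are stretches of methylated liver DNA that were found in both a Pemt-/- and a Pemt+/+ library. They held relatively more sequence tags in the Pemt+/+ library. They were chosen by their tag numbers. From the longer of the lists deposited for each library, 79393 pairs of regions were formed. In each pair 1 Pemt-/- region and 1 Pemt+/+ region overlapped by at least 1 bp and neither overlapped another. Of these pairs, 33863 held 40 or more tags in sum, and the 2110 pairs with a Pemt-/- to Pemt+/+ tag ratio of 0.38 or less are the Pemt+/+-rich pairs. They were compared with the other 31753 pairs of 40 or more tags and with the number that a random split of each pair's tags would give.

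Pemt-/- mice lack phosphatidylethanolamine N-methyltransferase (Pemt) and Pemt+/+ mice are the wild-type controls. Both genotypes received high fat-high sucrose (HFHS) chow from 5 weeks of age, per the labels, and the liver was taken at 25 weeks. The study's methods, in the passage on the capture, describe livers taken in the first weeks of HFHS chow, so age and time on chow are uncertain. The study used male mice, captured methylated DNA with an enrichment kit and sequenced 1 library per genotype. No difference between the libraries therefore has a replicate check, and no test compared the genotypes. The study's methods name several mice of each genotype, and do not say whether a library held DNA of 1 mouse or of more. Genotype, library and mouse cannot be told apart. The longer lists held 97063 regions with 1582080 tags in Pemt-/- and 131279 regions with 2847831 tags in Pemt+/+. A list of methylated regions holds no expression markers, so neither the tissue nor the loss of Pemt was checked from it.

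Pemt makes phosphatidylcholine from phosphatidylethanolamine in the liver and uses S-adenosylmethionine, the methyl donor that DNA methyltransferases also use. In mammals DNA methylation sits mostly on cytosines of CpG dinucleotides. Gene bodies and intergenic DNA are largely methylated, many promoters with dense CpG are not, and imprinted control regions carry methylation on the allele of 1 parent. Capture of methylated fragments returns a pile of tags, so its counts rise with CpG number as well as with methylation, and a tag ratio is not a methylation level.

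Among the Pemt+/+-rich pairs, 8 had a Pemt+/+ region that overlapped the 5′ end of a transcript. To show the sequence before such starts, the 250 bases before the start are printed for 3 of these genes, from RefSeq on build GRCm38.p6. The windows do not match the regions. The Pemt+/+ region ran 645 bp past the start at Aox4, and at Taar3 from 142 bp before to 1022 bp past it. Of the 8 genes, 7 had an entry in the RefSeq promoter table, and 5 had a single entry. CpG dinucleotides, searched as CG, which reads the same on both strands, are in capitals. The regions themselves are on build mm9, so these letters were matched by gene symbol and not by position. Zrsr1 is a retrogene of a splicing factor inside Commd1 and is expressed from the paternal allele. Aox4 encodes an aldehyde oxidase and Taar3 a trace amine receptor. The windows are chr11:22971755-22972004, chr1:58210147-58210396 and chr10:23949308-23949557, each on the + strand.
Zrsr1: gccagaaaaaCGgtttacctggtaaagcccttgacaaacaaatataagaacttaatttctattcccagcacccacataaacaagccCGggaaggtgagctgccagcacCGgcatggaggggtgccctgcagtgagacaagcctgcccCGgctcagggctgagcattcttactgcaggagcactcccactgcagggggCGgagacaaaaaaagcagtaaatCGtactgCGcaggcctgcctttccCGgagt
Aox4: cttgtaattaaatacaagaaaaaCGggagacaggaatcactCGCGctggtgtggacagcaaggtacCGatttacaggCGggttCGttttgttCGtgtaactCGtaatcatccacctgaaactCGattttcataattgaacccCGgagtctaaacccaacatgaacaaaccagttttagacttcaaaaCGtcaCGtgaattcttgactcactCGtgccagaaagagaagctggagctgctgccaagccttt
Taar3: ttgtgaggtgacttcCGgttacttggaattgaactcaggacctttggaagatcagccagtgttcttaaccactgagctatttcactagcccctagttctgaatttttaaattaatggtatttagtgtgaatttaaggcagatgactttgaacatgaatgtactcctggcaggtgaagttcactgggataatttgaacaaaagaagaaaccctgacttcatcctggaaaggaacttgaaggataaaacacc

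The Aox4 window held 13 CpG, the Zrsr1 window 8 and the Taar3 window 1. The median over 32851 RefSeq promoter windows of the same length was 6. At least as many CpG as in Aox4 were found in 31.5% of all windows, as in Zrsr1 in 43% and as in Taar3 in 92.1%. The 3 windows therefore range from CpG-rich to CpG-poor sequence. They are 3 of the 5 genes with a single entry and do not stand for the other starts.

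By the rule that chose them, the pairs held few Pemt-/- tags. The median was 13 tags in Pemt-/- (range 8 to 69) and 39 in Pemt+/+ (29 to 251), against 22 and 34 in the other pairs. The ratio ran from 0.136 to 0.38 with a median of 0.34, and the other pairs had a median of 0.64. These values describe the choice. Over all pairs of 40 or more tags, 6.23% met the limit, and 38.6% of the tags came from Pemt-/-. The smallest Pemt-/- region listed had 8 tags, so a pair of 40 tags could not go below a ratio of 0.25. The limit cuts through a dense part of the distribution. The 3 pairs just inside it each had 19 Pemt-/- and 50 Pemt+/+ tags, 1 of them in Efnb2, which encodes the ligand ephrin B2. The 3 just outside had 46 and 121, 16 and 42, and 16 and 42. There were 598 chosen pairs with a ratio above 0.36 and 661 other pairs with a ratio of up to 0.40.

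**Figure D1:**
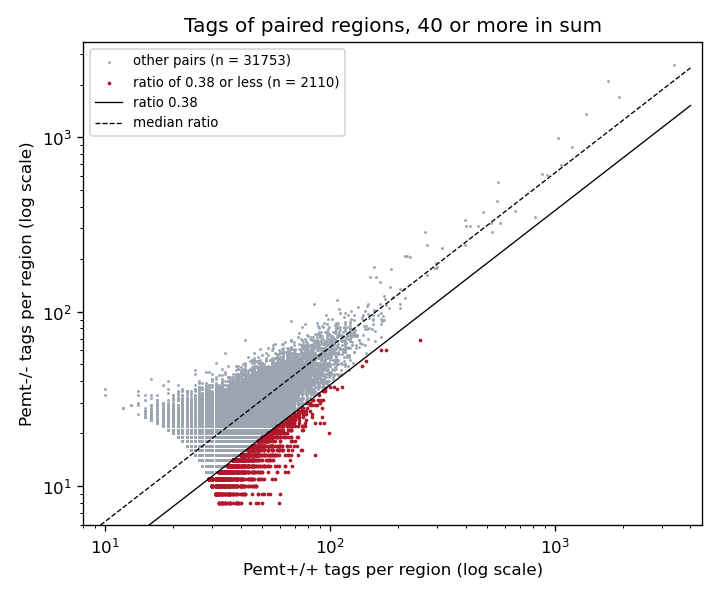
Pemt-/- tags against Pemt+/+ tags for each pair of regions with 40 or more tags in sum, both axes on a log scale. The 2110 pairs at or under a ratio of 0.38 (solid line) lie below the cloud around the median ratio of 0.625 (dashed line), and most of them hold fewer than 20 Pemt-/- tags.

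The lowest ratios came from small Pemt-/- tag numbers. The lowest of all was at chr11:6733979-6734986, with 8 Pemt-/- and 59 Pemt+/+ tags and no transcript within 10 kb. The Pemt-/- share of its tags was 11.9% (Wilson 95% interval 6.18 to 21.8, counting error only). A region 5263 bp upstream of Morn3 had 9 and 60 tags, and one inside Mylip, which encodes a ubiquitin ligase for the LDL receptor, had 9 and 53. A region inside Setd1a, a histone H3 lysine 4 methyltransferase, had 9 and 50 tags. At the 3′ end of Hs3st2, a heparan sulfate sulfotransferase, the numbers were 9 and 51. A region downstream of the beta-defensin genes Defb30 and Defb43 had 9 and 54. Of the 10 lowest ratios, 9 had a Pemt-/- region of 8 or 9 tags, close to the smallest in the list.

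The pairs with the most tags have the smallest counting error in their ratios. Inside Zfp462, which encodes a zinc finger protein, there were 69 Pemt-/- and 251 Pemt+/+ tags (chr4:55021518-55024157). The Pemt-/- share was 21.6% (17.4 to 26.4), below the 38.6% of all pairs. The pair in Gm13152 had 60 and 178 tags and the pair in Agap1, an Arf GTPase-activating protein, 60 and 169. At the 3′ end of Zbtb38, a zinc finger protein that binds methylated CpG, 52 and 145 tags were found. The pair in Msrb3, a methionine sulfoxide reductase, had 36 and 107, and the pair in Acer3, an alkaline ceramidase, 37 and 100. In all 10 pairs with the most tags the upper bound of the Pemt-/- share, at most 35.7%, was below 38.6%, as it had to be for pairs chosen by ratio at this depth. The Pemt+/+ region of the Zfp462 pair was 2640 bp long and the Pemt-/- region 1006 bp, and all 10 had the longer region in Pemt+/+. The ratio of tags per bp ran from 0.506 to 1.28 over the 10, and the other pairs had a median of 0.674. It was 1.14 at Gm13152, 1.28 at Msrb3, 0.873 at Zbtb38, 0.721 at Zfp462, 0.716 at Acer3 and 0.589 at Agap1.

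The number of Pemt+/+-rich pairs was larger than a random split of tags gives. If each pair's tags were split with 38.6% going to Pemt-/-, 1478 pairs would have a ratio of 0.38 or less, and 2110 did, 1.43 times as many (95% Poisson interval of the observed number 1.37 to 1.49). As shares of the pairs these are 6.23% and 4.37%. At a limit mirrored in tag share, the opposite tail was as heavy. Over all pairs the ratio of summed tags was 0.629, a Pemt-/- share of 38.6%. At a ratio of 0.987 that share lies as far above 38.6% as it lies below it at 0.38. At or above 0.987 there were 2319 pairs against 1626 expected, also 1.43 times. At these limits the excess was thus as large on the Pemt-/- side as on the Pemt+/+-rich side. Further out the sides differed. At a log2 ratio of 0.75 to 1 there were 32 pairs against 8.49 expected. At −2.25 to −2 there were 97 against 47.2. The expectation treats tags as independent, and the handling of duplicate reads is not given in the sources used here. With pairs formed only from the upper 50% of each list by score, the observed number was 1.01 times the expected one (0.944 to 1.07). The score comes from the same reads, and its Pemt-/- median was 81.5 in the chosen pairs against 143 in the others. This cut therefore takes out regions with few Pemt-/- tags, which the expectation does not allow for, and it does not place the excess.

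**Figure D2:**
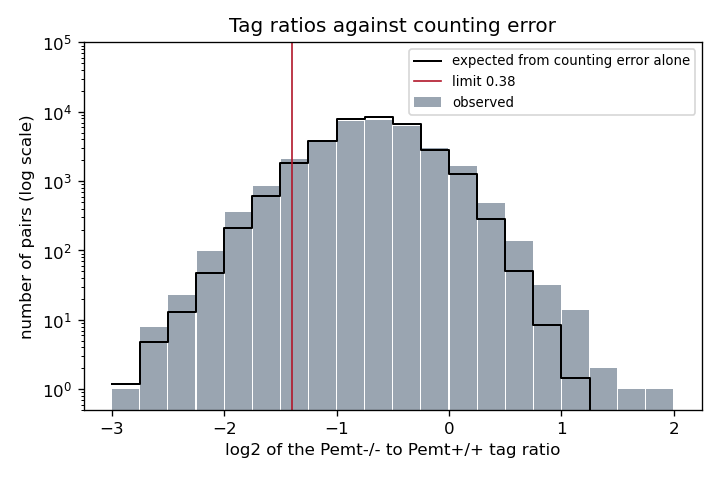
Number of pairs (log scale) by log2 of the Pemt-/- to Pemt+/+ tag ratio, observed (bars) and expected when each pair's tags are split by counting error alone (line). The bars exceed the line in both tails, by 1.43 times at or below 0.38 (red line) and by 1.43 times at or above 0.987.

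The excess depended on depth. Pairs of 40 to 49 summed tags, which made up 944 of the 2110, were 1.14 times the expected number (1.07 to 1.22). The figure was 1.49 at 50 to 59 tags, 1.95 at 60 to 79 and 2.73 (2.33 to 3.16) at 80 to 119. At 120 or more tags, 18 pairs were found against 3.61 expected, a ratio of 4.99 (2.96 to 7.88). The share of pairs that met the limit fell at the same time, from 7.67% at 40 to 49 tags to 1.51% at 120 or more. The lowest class thus lay nearest to the expectation, and the classes above it at 1.49 to 4.99 times the expected number.

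The Pemt-/- regions of these pairs were short. Their median length was 435 bp against 622 bp for the Pemt+/+ regions, a median length ratio of 0.728 (95% interval of the median 0.713 to 0.745). In the other pairs the lengths were 537 and 559 bp and the ratio 0.966. The Pemt-/- region was at most 0.5 times as long as the Pemt+/+ region in 410 of the 2110 pairs (19.4%) and in 1.9% of the others. Region length is set by the same reads that the rule used, so this is a description and no separate evidence. The summits, the points of highest coverage, were close together, with a median distance of 19 bp and 88.2% within 100 bp of each other, against 16 bp and 91.7% in the other pairs. The same site was therefore listed in both libraries in most pairs, with a wider footprint in Pemt+/+.

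Per bp the difference was smaller. The Pemt-/- regions held 3.03 tags per 100 bp and the Pemt+/+ regions 6.43 (medians), and the ratio of tags per bp had a median of 0.454. In the other pairs the densities were 4.29 and 6.42 and the ratio 0.674. The Pemt+/+ density of the chosen pairs was at the level of the other pairs and the Pemt-/- density was below it. Densities and fold enrichment come from the same reads that the rule used, so they are a description and no separate evidence. Of the 2110 pairs, 605 (28.7%) also had a ratio of tags per bp of 0.38 or less. The authors' fold enrichment, the height over background, had a median of 16.1 in Pemt-/- and 23.7 in Pemt+/+, and it was lower in Pemt-/- in 91.8% of the chosen pairs and 64.2% of the others.

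**Figure D3:**
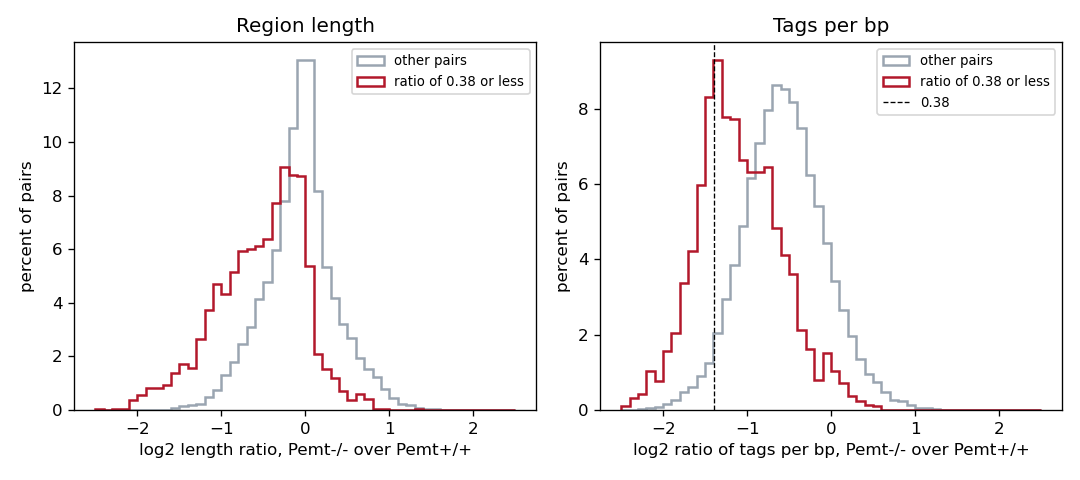
Distribution of the log2 length ratio (left) and of the log2 ratio of tags per bp (right), Pemt-/- over Pemt+/+, as percent of the pairs in each set. Pairs with a tag ratio of 0.38 or less (red, n = 2110) extend to shorter Pemt-/- regions than the other pairs (grey, n = 31753), and 28.7% of them lie at or left of 0.38 (dashed) per bp.

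Set against the counting expectation, the numbers went with relative length. Few Pemt-/- tags give a short Pemt-/- region, so this order follows in part from the choice by tags, and it is a description that does not place the excess. Where the Pemt-/- region was at most 0.5 times as long, 410 of 1012 pairs (40.5%) met the limit, 8.57 times the expected number (7.76 to 9.44). At 0.5 to 0.8 times it was 2.38. Among the 20000 pairs with lengths within 0.8 to 1.25 of each other, 795 met it against 851 expected, a ratio of 0.934 (0.871 to 1.002). With the expectation taken from the summed tags of these pairs alone, the ratio was 1.08 (1.001 to 1.15). Above 1.25 the number was 0.29 times the expected one.

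**Figure D4:**
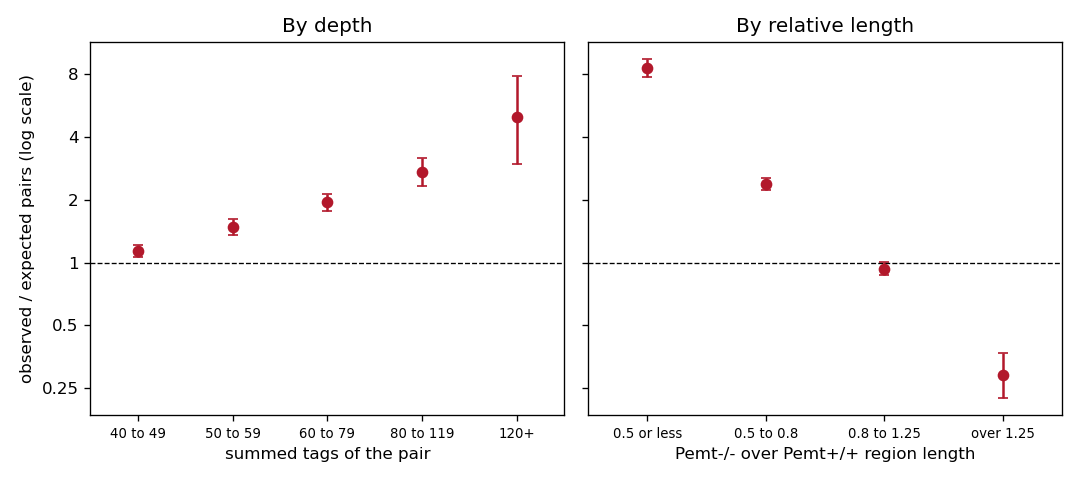
Observed over expected number of pairs with a tag ratio of 0.38 or less (log scale), by the summed tags of the pair (left) and by the Pemt-/- over Pemt+/+ region length (right), with 95% Poisson intervals of the observed number. The ratio rises from 1.14 to 4.99 with depth and falls from 8.57 to 0.29 with relative length, a measure from the same reads, passing 0.934 where the lengths are alike.

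Many of the regions stood in the authors' shorter Pemt+/+ list, which holds 6098 regions and was made from the same library. Of the 33863 pairs, 2.86% had their Pemt+/+ region there. It held 764 of the 2110 chosen pairs (36.2%, 34.2 to 38.3) and 203 of the others (0.639%). The deposited FDR of the 764 ran from 21.1% to 36.6% with a median of 32.3%. In the shorter Pemt-/- list there were 0 of the 2110, which allows a share of up to 0.142%, and 40 of the other pairs. Since the shorter lists were made from the same reads, this overlap is not independent of the rule.

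Where the regions lay in the genome was read from the Pemt+/+ region of each pair. It was not used to choose the pairs, and it was close to that of the other pairs. They lay inside or overlapped a transcript in 792 of 2110 cases (37.5%, 35.5 to 39.6) against 39% of the others, and 53.5% against 52.9% had no transcript within 10 kb. A 5′ end was overlapped, or lay within 2 kb downstream of the region, in 30 pairs (1.42%, 0.998 to 2.02) against 1.23%. A 3′ end was overlapped in 25 pairs (1.18%, 0.804 to 1.74) against 0.844%. The genes that held them were of similar length, with a median of 110 kb (101 to 118) against 114 kb. All these intervals of the chosen pairs include the value of the other pairs.

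The neighbours of the regions had ratios near those of all pairs. The nearest other pair of 40 or more tags had a median ratio of 0.621 (0.615 to 0.63), against 0.625 for the neighbours of the other pairs, at a median distance of 16.6 kb. It was itself Pemt+/+-rich in 115 cases (5.45%, 4.56 to 6.5), against 6.06%. Within 10 kb it was so in 28 of 738 cases (3.79%, 2.64 to 5.43), against 5.74%, which is just above the interval. The nearest pair of 20 to 39 tags, which the rule left out, had a median ratio of 0.692 (0.684 to 0.714) against 0.714. Within 10 kb it was 0.688 (0.667 to 0.706) against 0.714. The neighbours' medians were thus below those of the other pairs by far less than the gap between the chosen pairs and the rest.

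By chromosome, the share of pairs that were Pemt+/+-rich ran from 5.53% on chromosome 19 to 7.42% on chromosome 4 among the autosomes. Only the interval of chromosome 4 (142 of 1914 pairs, 6.33 to 8.68) left out the 6.23% of all pairs, among 20 chromosomes looked at. On the X chromosome 19 of 230 pairs were chosen (8.26%, 5.35 to 12.5), and the median ratio of X pairs was 0.587. Within 10 Mb of Pemt, on chromosome 11, the number was 20 of 264 (7.58%, 4.96 to 11.4). On unplaced or random sequence there were 12 chosen pairs (0.569%, 0.326 to 0.992) against 0.346% of the others.

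At 4 of the 8 5′ ends the Pemt-/- region was less than 0.5 times as long as the Pemt+/+ region. At Zrsr1 there were 23 Pemt-/- and 94 Pemt+/+ tags (chr11:22871875-22874187). The Pemt-/- region covered 548 bp (chr11:22873604-22874151) inside the 2313 bp of Pemt+/+. The ratio of tags per bp was 1.03 there, so the raw densities were alike over unequal lengths. The other pairs had a median of 0.674, and the summits at Zrsr1 lay 372 bp apart. At Aox4 there were 23 and 77 tags. The Pemt+/+ region ran from 489 bp before the start to 645 bp after it, and the Pemt-/- region ended 36 bp before the start. At Myo18a, an unconventional myosin, the tags were 14 and 53 and the lengths 335 and 1406 bp, and the ratio per bp was 1.11. The Pemt-/- region there began 15 bp past the start. At the tight junction gene Marveld2 there were 14 and 39 tags at a ratio per bp of 0.9995.

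At the other starts the lengths were closer, though at Zfp521 they were 877 bp in Pemt-/- and 1752 bp in Pemt+/+. The Taar3 pair had 21 and 57 tags, with the Pemt+/+ region from 142 bp before to 1022 bp after the start and the Pemt-/- region from 61 bp before to 822 bp after it. The pair at Tssk2, a testis kinase, had 18 and 52 tags, and the pair at the zinc finger gene Zfp521 had 25 and 69. At Slfn4, a schlafen family gene of myeloid cells, the numbers were 11 and 38, and the Pemt-/- region was the longer one (440 against 380 bp), so the ratio per bp was lower still, at 0.25. Just upstream of starts, the pair 111 bp before Myom1, which encodes a sarcomere protein, had 19 and 54 tags over 481 and 492 bp. The pair 1986 bp before the polycystin gene Pkd2 had 18 and 52. In these 2 pairs the lengths were alike and the ratios per bp were 0.36 and 0.372.

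Of the imprinted genes, whose control regions are methylated on 1 parental allele, 84 pairs were found and 6 were Pemt+/+-rich (7.14%, 3.32 to 14.7), close to the 6.23% of all pairs. Beside Zrsr1, the pair inside Peg10, a retrotransposon-derived gene, and 7861 bp upstream of Sgce had 16 and 75 tags (chr6:4705065-4706108). The pair in the potassium channel gene Kcnq1, host of an imprinted antisense RNA, had 13 and 63 tags (chr7:150480883-150482575). Igf2r, the receptor that clears Igf2, had a pair of 10 and 42 tags, and Sfmbt2, a Polycomb gene, one of 17 and 45. The ratios of the first 4 of these 5 ran from 0.206 to 0.245, and the lower quartile over all 2110 chosen pairs was 0.302. The 5 are those with the most summed tags among the 6, and their low ratios were not tested. The median ratio of the 84 pairs was 0.623, at the level of all pairs, and the Pemt+/+ region was the longer one in each of the 5.

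The genes of phosphatidylcholine synthesis and the methyl donor cycle had 3 chosen pairs among 23 (13%, 4.54 to 32.1), an interval that includes the 6.23% of all pairs. Inside Mtrr, the methionine synthase reductase, and 3081 bp upstream of Fastkd3, there were 30 Pemt-/- and 80 Pemt+/+ tags (chr13:68717222-68718043). A pair 2727 bp downstream of Mat2a, which makes S-adenosylmethionine, and inside Ggcx had 11 and 36. A pair 107 bp downstream of Dmgdh, which demethylates dimethylglycine, had 11 and 29, and there the Pemt-/- region was the longer. The median ratio over the 23 pairs was 0.719, and that of all pairs 0.625.

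The DNA methylation machinery had 2 chosen pairs among 20 (10%, 2.79 to 30.1, against 6.23% of all pairs). They lay at Zbtb38 (above) and 4499 bp downstream of Uhrf2, a hemimethylated DNA-binding protein, with 19 and 50 tags. The second overlapped the 3′ end of the glycine decarboxylase gene Gldc, and its regions were 283 and 1001 bp long, so that the ratio per bp was 1.34. For p53, cell cycle and apoptosis genes it was 3 of 50 (6%, 2.06 to 16.2, against 6.23%). The pair in the growth regulator Myc had 21 and 57 tags, and the pair in the apoptosome gene Apaf1 12 and 34. The third, 5619 bp upstream of the cyclin partner Cdk4 and inside March9, had 12 and 35. Among hepatocyte and lipid metabolism genes 0 of 40 pairs were chosen, which allows a share of up to 7.5% and so does not leave out the 6.23% of all pairs. The median ratio of those 40 was 0.673.

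Larger gene families gave shares on both sides of the background. Olfactory and vomeronasal receptor genes had 17 of 186 (9.14%, 5.79 to 14.2), with 14 and 53 tags in Vmn2r99. Cell adhesion genes of long neuronal loci had 22 of 243 (9.05%, 6.06 to 13.3), with 12 and 43 tags in Cdh4. Potassium, calcium and sodium channels had 15 of 196, with 10 and 41 tags in Kcnj5. Glutamate and GABA receptors had 6 of 88, with 15 and 48 tags in Grik3. Zinc finger protein genes had 16 of 237 (6.75%, 4.2 to 10.7), and homeobox, Sox, Gata and forkhead genes 9 of 139 (6.47%), with 8 and 40 tags in Sox30. Wnt, Bmp, Tgfb and Notch genes had 2 of 47, at Wnt5b and Tgfb2, and clustered protocadherins 3 of 20. The single pair at a Hox gene was not chosen. The interval of each gene list included 6.23%.

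**Figure D5:**
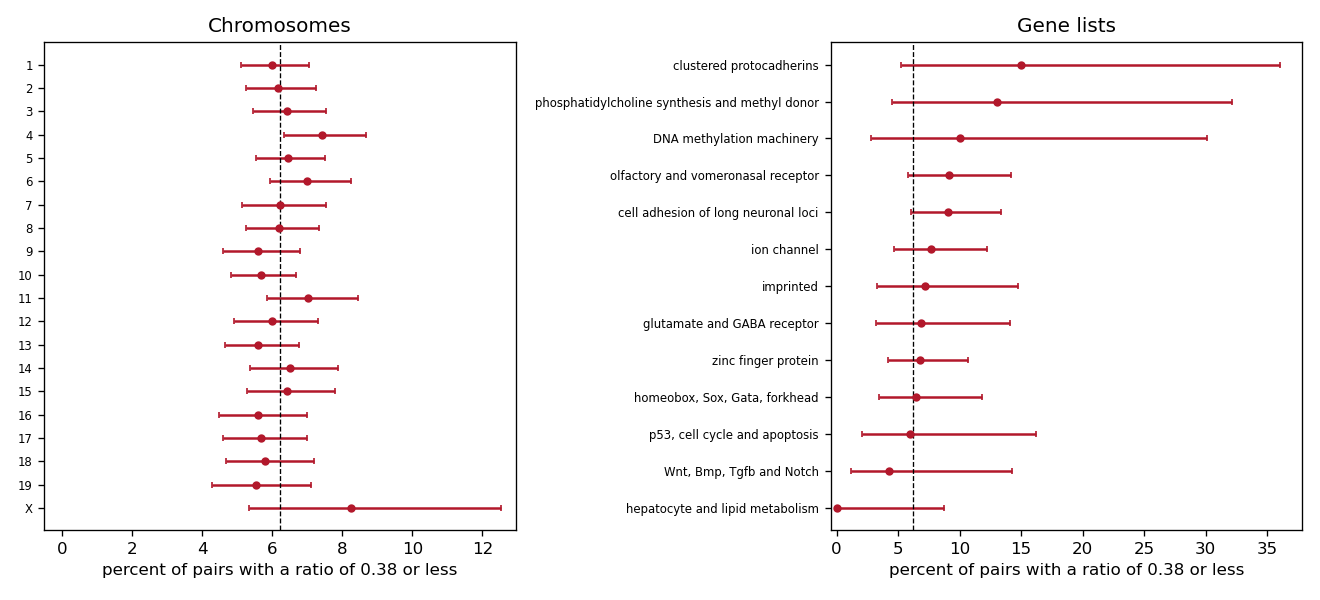
Percent of pairs with a tag ratio of 0.38 or less by chromosome (left) and by gene list (right, lists with 20 or more pairs), with Wilson 95% intervals and the 6.23% of all pairs (dashed). Chromosome 4, at 7.42%, is the only entry whose interval leaves out the dashed line.

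Of 7623 genes with a pair, 998 had 1 or more chosen pairs, 96 had 2 or more and 9 had 3 or more. The 9 were long genes, of 413 to 1554 kb in RefSeq, and had 9 to 37 pairs each. Their shares of chosen pairs ran from 9.38% in Smyd3 to 33.3% in Dab1, against 6.23% of all pairs. Genes were named here for their number of chosen pairs, so shares above 6.23% follow in part from that choice. How many such genes this share would give was not computed. Pcdh15, a protocadherin of hair cells, had 4 of 14 pairs, with 49 Pemt-/- and 157 Pemt+/+ tags in sum, and Camta1, a transcription activator, had 4 of 37, with 51 and 152. Dab1, an adaptor of reelin signalling, had 3 of 9, the protein kinase gene Prkce 3 of 16, and Cdh13, which encodes T-cadherin, 3 of 31. The other 10 pairs of Pcdh15 had a ratio of summed tags of 0.558, and the other 33 of Camta1 of 0.607. In the 9 genes this ratio ran from 0.558 to 0.67, so the rest of each gene lay near the overall 0.629. Chd4, a nucleosome remodeller, had 2 of 4 pairs, with 35 and 94 and with 21 and 58 tags.

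Stretches with chosen pairs at most 100 kb apart numbered 226 and held 492 of the 2110 pairs, and 32 of them held 3 or more. The number that an equal draw from all pairs would give was not computed. Pairs lie close together, with a median distance to the nearest of 16.6 kb for chosen and 15.25 kb for other pairs. That nearest pair was a chosen one in 5.45% of cases against 6.06%. The 2 largest stretches held 5 chosen pairs each. In chr10:119595715-119834942, with the chromatin gene Hmga2 and the signalling gene Irak3, the 5 pairs summed to 85 Pemt-/- and 256 Pemt+/+ tags. The other 15 pairs of this stretch had 386 and 584, a ratio of 0.661. In chr13:45389808-45537732, which holds Mylip, the 5 pairs summed to 53 and 199, and the other 7 pairs had a ratio of 0.68. In these 2 stretches the low ratios were interleaved with ordinary ones. Of the 32 stretches, 23 held at least as many other pairs as chosen ones, and 7 held 0 or 1 other pairs. One of the 7, in Dab1, had 3 chosen pairs and no other, with 39 and 119 tags in sum.

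No pair was Pemt+/+-rich at Pemt, or at Fbxo31 and Hnf4a, which the study reported as more methylated in Pemt-/- mice. The 2 pairs inside Pemt had 19 and 25 and 31 and 35 tags in Pemt-/- and Pemt+/+. At Fbxo31, an F-box gene of ubiquitin ligases, 5 pairs had ratios of 0.5 to 1.1. Pairs 9827 bp downstream and 5392 bp upstream of the gene are among them. The pair 4465 bp downstream of Hnf4a, a transcription factor of hepatocytes, had 14 and 13 tags. Both pairs of Pemt reached 40 summed tags, 1 of the 5 at Fbxo31 did, and the Hnf4a pair did not.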

How the data were processed

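Methylated DNA was captured from Pemt-/- and Pemt+/+ liver and sequenced with 1 library per genotype. The labels speak of bisulphite conversion before capture and the study's methods do not. The submitters' processing notes name CASAVA 1.8.2, Bowtie and the build mm9. The region names are of the kind MACS gives. Its settings, the control and the handling of duplicate reads are not given in the sources used here, and each of them can change tag numbers, lengths and FDR. Tags in the deposited lists are raw read counts per region, from 8 upwards in Pemt-/- and 9 in Pemt+/+. Fold enrichment, as the authors deposited it, is a ratio over background, the deposited score is 10 times the −log10 p-value and at least 50, and the deposited FDR is a percent. Distances to transcripts, up to 10 kb, were read from the lists. The relation of a pair to transcripts is that of its Pemt+/+ region.

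Each region was used once. Expected numbers came from the binomial distribution of each pair's tags with the pooled Pemt-/- share. Intervals are Wilson for shares, exact Poisson for numbers and binomial order statistics for medians, at 95%, and cover counting error only, since reads are not independent molecules. The list totals, not the library depths, are known, so precision rests on the tags of a pair. Python 3.11.15, pandas 2.3.3, numpy 2.4.6, scipy 1.17.1 and matplotlib 3.10.9 were used. Pairing and expectation were tested on simulated data. Regions were named by a rule: the 10 lowest ratios, the 10 with most tags, 5′ ends and the 2 kb before them, genes and stretches with several, up to 5 per gene list, the 3 on each side of the limit, and pairs at Pemt, Fbxo31 and Hnf4a. The members and the gene lists were chosen with earlier results of these data known. The alternatives are given in the closing section.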

Additional observations from a re-analysis of the deposited data

How the results depend on the processing

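No paired analysis was possible because there is a single library of either genotype, and none could be left out. Of the values under other settings, 46 stayed within the main interval (numbers of pairs within 1.5 times) and 26 moved. The cause of a move was not tested, and some settings used fewer pairs. The observed over expected ratio, 1.43 as reported, was 1.3 with an overlap of 50% of both regions, 1.01 in the upper 50% of each list by score (0.944 to 1.07), 2.01 at a minimum of 60 tags, 1.63 at a limit of 0.33 and 1.08 for lengths within 0.8 to 1.25. The number of pairs was 934 by score, 644 at 60 tags, 880 at 0.33 and 795 for like lengths. The cuts by score and by like lengths rest on the same reads as the rule. The share in the shorter Pemt+/+ list was 39.7% with 50% overlap, 52% at 60 tags, 55.3% at 0.33, 27% per bp and 48.8% for like lengths. The share near a 5′ end was 2.17% at 60 tags and 0.707% per bp, and the X share per bp was 0.381%. The ratio of the nearest pair was 0.645 by score, 0.613 at 60 tags and 0.636 for like lengths. The median length ratio was 0.795 with 50% overlap, 0.7003 by score, 0.709 at 60 tags, 0.642 at 0.33 and 0.927 for like lengths. Chosen by tags per bp, the Pemt-/- region was the longer one, at 1.38, since the choice then divides by its length. Summing all overlapping regions or keeping autosomes only moved none of the values. Like lengths, the split of the median pair (1.37) and the expectation given both regions listed (1.44) were chosen after seeing the data. Depth limits single pairs: at 40 tags the lowest ratio that could be listed was 0.25.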
